A study of Mus musculus with 6 samples.

Results

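Of the 31318 peaks listed for 3 V5-tagged forms of Krüppel-like factor 3 (KLF3) in mouse embryonic fibroblasts (MEFs), 962 lay in short interspersed elements (SINEs). They were taken as the peaks to which the authors' annotation of the peak centre gave a repeat of class SINE, whatever the height of the peak. The KLF3 list held 318 of them among 14115 peaks, the ΔDL list 460 among 12248 and the DBD list 184 among 4955. A site can be listed for more than 1 construct, and the 962 peaks fell on 682 distinct sites.

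The binding data came from chromatin immunoprecipitation with an anti-V5 antibody followed by sequencing (ChIP-seq), with 2 biological replicates of each construct and an input library beside every replicate. All cells derived from Klf3-/- MEFs on a C57BL/6 background, so no endogenous KLF3 was present in any group. They had been transduced with a retrovirus that carried Klf3-V5, ΔDL-V5 or DBD-V5, and a puromycin-resistant single clone was kept for each construct, so construct and clone cannot be told apart. ΔDL has a substitution in the motif with which KLF3 contacts its corepressor CtBP, and DBD lacks the whole N-terminal domain and retains the nuclear localization signal and the zinc fingers.

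KLF3 is a zinc finger transcription factor that binds CACCC boxes and related GC-rich elements and represses genes through CtBP. SINEs are short retrotransposons that derive from RNA polymerase III transcripts and are copied by the enzymes of LINE elements. In the mouse, B1 elements (the family that the annotation calls Alu) descend from 7SL RNA, B2 and ID elements from transfer RNAs, and B4 elements join ID-like and B1-like parts, while MIR elements are older and shared across mammals. Young SINE copies are nearly identical to each other, so that reads from them can be hard to place in the genome.

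The sequences at the centres of the highest SINE peaks are shown first, because the most evident contrast between the constructs can be read from them. Each line gives 101 bases around the centre of 1 of the 8 highest SINE peaks of the KLF3 list, on the forward strand of mm9, with the nearest gene as the authors named it and the SINE subfamily. Capitals mark matches to the KLF consensus (ACACCC, its variant CCACCC, the CpG form ACGCCC or the other CpG form CCGCCC, on either strand) and to the AP-1 element (TGAGTCA, whose reverse complement is TGACTCA).
Frs2 (MIRc, chr10:116588537-116588637): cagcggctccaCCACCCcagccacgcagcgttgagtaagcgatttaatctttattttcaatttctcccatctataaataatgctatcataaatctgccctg
2300002M23Rik (MIRm, chr17:35727509-35727609): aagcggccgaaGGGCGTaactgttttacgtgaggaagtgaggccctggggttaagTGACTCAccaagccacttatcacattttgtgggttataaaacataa
Anxa2 (MIR3, chr9:69291166-69291266): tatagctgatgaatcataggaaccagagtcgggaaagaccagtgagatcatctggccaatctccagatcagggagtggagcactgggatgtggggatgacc
Aqp2 (ID4_, chr15:99384268-99384368): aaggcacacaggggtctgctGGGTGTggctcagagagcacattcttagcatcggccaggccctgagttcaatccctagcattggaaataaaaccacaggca
Crkl (B2_Mm2, chr16:17432852-17432952): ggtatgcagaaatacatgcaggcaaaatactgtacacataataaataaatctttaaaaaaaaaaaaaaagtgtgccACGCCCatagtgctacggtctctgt
Tiam2 (B3A, chr17:3288452-3288552): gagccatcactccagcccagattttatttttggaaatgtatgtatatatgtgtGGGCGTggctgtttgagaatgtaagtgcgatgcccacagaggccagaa
Tpbg (B4, chr9:85702969-85703069): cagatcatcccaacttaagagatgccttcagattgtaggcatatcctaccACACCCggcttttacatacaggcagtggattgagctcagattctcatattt
Tet1 (B1_Mus2, chr10:62348584-62348684): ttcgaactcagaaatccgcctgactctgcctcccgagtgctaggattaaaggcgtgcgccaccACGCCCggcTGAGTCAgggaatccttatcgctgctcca
Of these 8 windows, 7 held the KLF consensus. The highest SINE peaks of the DBD list read differently, and the first 3 of them follow, chosen by rank alone.
1700016G22Rik (B3, chr13:5812389-5812489): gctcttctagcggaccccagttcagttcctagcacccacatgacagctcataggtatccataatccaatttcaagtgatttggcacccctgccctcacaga
Ccng2 (B1_Mm, chr5:93887570-93887670): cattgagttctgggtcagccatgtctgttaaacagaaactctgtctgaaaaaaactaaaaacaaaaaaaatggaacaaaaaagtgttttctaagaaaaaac
Hprt (RSINE1, chrX:50346345-50346445): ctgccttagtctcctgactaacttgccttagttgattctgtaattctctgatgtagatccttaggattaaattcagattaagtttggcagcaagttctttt
None of these 3 windows held either element in the forms searched, and among all 8 of the highest DBD peaks 1 held the KLF consensus. The 1700016G22Rik window does hold CACCC after a G, a form that the search leaves out. Among the 8 highest SINE peaks of the ΔDL list, 7 held it.

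SINE peaks made up a smaller share of the KLF3 list than of either mutant list. The share was 2.25% for KLF3 (95% Wilson interval 2.02 to 2.51), 3.76% for ΔDL (3.43 to 4.11) and 3.71% for DBD (3.22 to 4.28), where the intervals cover counting error over peaks only. In the lists of single replicates the share was 2.83% and 2.35% with KLF3, 4.01% and 3.75% with ΔDL and 3.83% and 4.21% with DBD. Both KLF3 replicates lay below all 4 mutant replicates, and the mutants overlapped each other. The 3 constructs did not separate by a two-sided exact permutation test over the 6 replicate lists (p = 0.133, adjusted over 5 tests p = 0.167), for which the smallest possible p is 0.0667.

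Repeats were annotated only outside promoters, exons and gene ends, so every SINE peak was intronic or intergenic by construction. Such peaks were 9329 of 14115 for KLF3, against 10840 of 12248 for ΔDL and 4744 of 4955 for DBD. Among them the SINE share was 3.41% for KLF3 (interval 3.06 to 3.80), 4.24% for ΔDL (3.88 to 4.64) and 3.88% for DBD (3.37 to 4.47). The replicates then gave 3.70% and 3.65% with KLF3, 4.48% and 4.65% with ΔDL and 4.03% and 4.47% with DBD (exact permutation test, p = 0.0667, the smallest it can give, adjusted p = 0.111). On this denominator the KLF3 and DBD intervals overlapped. LINE repeats, counted in the same way, took 3.38%, 9.93% and 11.9% of all KLF3, ΔDL and DBD peaks, and LTR repeats 3.59%, 5.36% and 5.49%, so the spread between constructs was larger for LINEs than for SINEs.

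**Figure D1:**
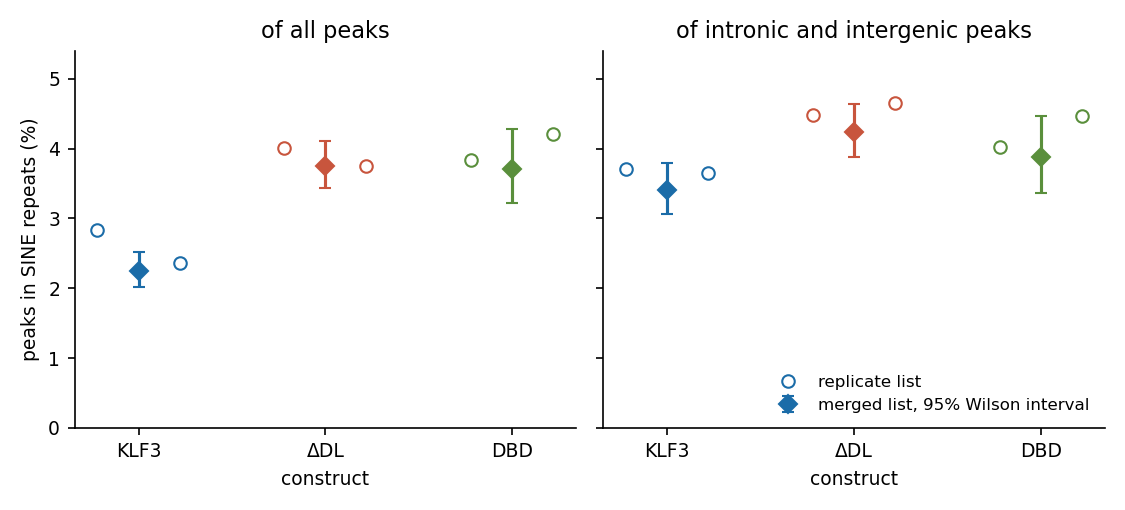
Share of peaks in SINE repeats (%, y axis) for the 3 constructs (x axis), of all peaks on the left and of intronic and intergenic peaks on the right. Diamonds are merged lists with 95% Wilson intervals and open circles the lists of replicates 1 and 2. The KLF3 values lie lowest in both panels, and the gap to the mutants is narrower on the right, where KLF3 is at 3.41% and DBD at 3.88%.

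The SINE peaks were spread over 34 subfamilies in the KLF3 and ΔDL lists and over 28 in the DBD list. The B4 family led the KLF3 list with 98 peaks, followed by Alu (B1) with 87, B2 with 63, MIR with 51 and ID with 15. In the ΔDL list the counts were 127, 114, 126, 74 and 16, and in the DBD list 55, 40, 54, 26 and 6. B2 elements held 19.8% of the KLF3 SINE peaks (interval 15.8 to 24.5), 27.4% of the ΔDL ones (23.5 to 31.6) and 29.3% of the DBD ones (23.2 to 36.3). The replicate lists do not separate the constructs on this measure, since B2 held 27.6% and 21.9% in the KLF3 replicates, 29.3% and 26.0% in ΔDL and 31.3% and 28.2% in DBD.

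The subfamily B3, a member of the B2 family, was the most frequent in each list, with 35 KLF3, 74 ΔDL and 29 DBD peaks. ID_B1, of the B4 family, came next in each list with 29, 39 and 18. Among the older MIR elements the shares were close, at 16.0%, 16.1% and 14.1% of the SINE peaks. The replicates gave 17.8% and 15.7% with KLF3, 14.1% and 14.7% with ΔDL and 15.1% and 15.2% with DBD (exact permutation test, p = 0.0667, the smallest it can give, adjusted p = 0.111).

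**Figure D2:**
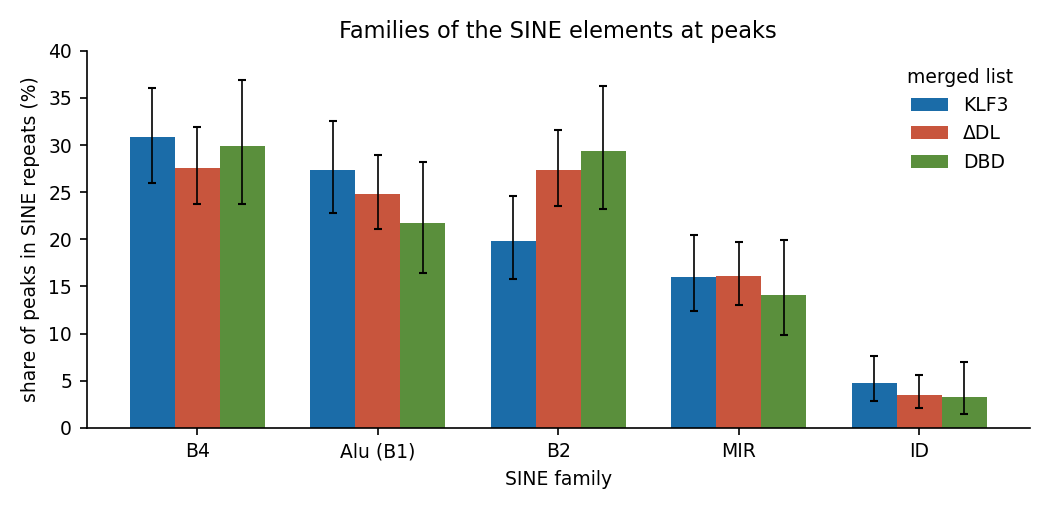
Share of SINE peaks in each family (%, y axis) for the merged lists of the 3 constructs, with 95% Wilson intervals that cover counting error only. B4 leads in each list, and B2 stands at 19.8% for KLF3 against 27.4% and 29.3% for the mutants.

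About as many SINE peaks were intronic as intergenic, with 155 of 318 in introns for KLF3, 226 of 460 for ΔDL and 86 of 184 for DBD. SINE positions within the windows were not located here. The median distance to the nearest transcription start site was 24911 bp for KLF3, 33102 bp for ΔDL and 39878 bp for DBD. The other intronic and intergenic peaks of the same lists lay farther out, at medians of 32520 bp, 71707 bp and 89526 bp. Nearest genes were rarely shared, since the 318 KLF3 SINE peaks were assigned to 311 genes.

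The median G+C content of SINE peaks spanned a smaller range across the constructs than that of other intronic and intergenic peaks. It was 43.4% for KLF3, 41.4% for ΔDL and 40.9% for DBD, and LTR peaks had a like course, at 44.4%, 41.1% and 40.1%. For the other intronic and intergenic peaks it was 45.9%, 38.7% and 37.2%, so that SINE peaks were below the rest in the KLF3 list and above it in both mutant lists. The difference, SINE minus other, was 2.44 and -1.40 percentage points in the KLF3 replicates, 5.26 and 4.58 in ΔDL and 6.11 and 7.09 in DBD (exact permutation test, p = 0.0667, the smallest it can give, adjusted p = 0.111). The sign of the KLF3 difference thus differed between the replicate lists. Their G+C content is that of peaks of other widths than the 400 bp of the merged lists, and the widths differ between replicate lists. The part of peak width was not tested. Conservation, as the authors' mean PhastCons score, had medians of 0.06, 0.04 and 0.04 at SINE peaks. The medians were 0.09, 0.04 and 0.03 at other intronic and intergenic peaks. LINE and LTR peaks together had 0.04, 0.02 and 0.02.

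The short KLF consensus was common at the centres of KLF3 SINE peaks and near the level of the flanks at the DBD ones. Within the central 100 bp it occurred in 146 of 318 KLF3 SINE peaks (45.9%, interval 40.5 to 51.4), in 78 of 460 ΔDL ones (17.0%, 13.8 to 20.7) and in 17 of 184 DBD ones (9.24%, 5.85 to 14.3). In 100 bp flanks at 400 to 500 bp from the same centres it occurred in 13.8%, 11.2% and 11.4%. Other intronic and intergenic peaks of the lists had central shares of 45.1%, 13.7% and 6.64%, which differed from those of the SINE peaks by far less than the constructs differed from each other.

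AP-1 elements, which bind FOS and JUN dimers, followed the same order. They occurred in 49 KLF3 SINE peaks (15.4%, interval 11.9 to 19.8), 23 ΔDL ones (5.00%, 3.35 to 7.39) and 6 DBD ones (3.26%, 1.50 to 6.93), against 3.14%, 2.61% and 1.90% in the flanks and 14.9%, 3.998% and 1.38% of the other intronic and intergenic peaks. The TEAD element GGAATG occurred in 8.49%, 6.74% and 3.80% of the SINE peaks, against 5.19%, 5.11% and 4.89% of the flanks and 11.2%, 5.76% and 4.101% of the other intronic and intergenic peaks. The B box of RNA polymerase III promoters, searched as GTTCGANNC on both strands, was found in 2 KLF3, 3 ΔDL and 1 DBD SINE peaks. These were 0.629%, 0.652% and 0.543%, against 0.943%, 0.326% and 0.543% of the flanks. Of the other intronic and intergenic peaks, 0.111%, 0.0963% and 0.110% held it. In the whole 400 bp it was found in 17, 17 and 8 SINE peaks (5.35%, 3.70% and 4.35%), against 1.35%, 1.22% and 1.21% of the others.

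**Figure D3:**
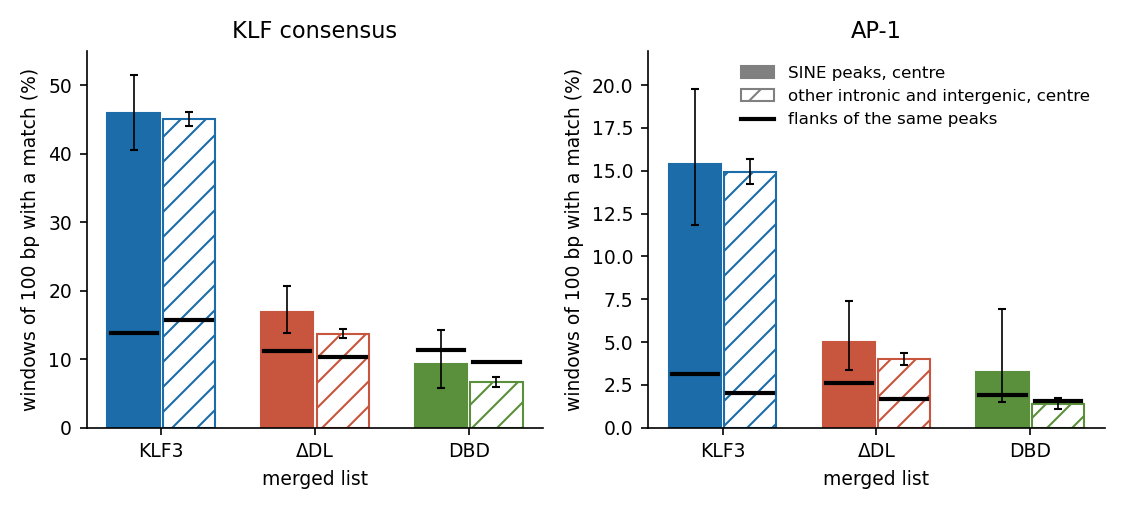
Share of 100 bp windows with a match (%, y axis) to the KLF consensus (left) and to the AP-1 element (right) in the merged lists. Filled bars are SINE peaks, hatched bars other intronic and intergenic peaks, error bars 95% Wilson intervals, and black lines the flanks of the same peaks. For KLF3, filled and hatched bars stand at 45.9% and 45.1%, far above the flanks, and for DBD the filled bar is at the flank level.

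The forms of the KLF consensus were mixed differently at SINE peaks and at the other peaks. Among the 146 KLF3 SINE peaks with a match, ACACCC occurred in 47.3%, ACGCCC in 30.8%, CCACCC in 24.0% and CCGCCC in 9.59%, whereas the 4060 other intronic and intergenic KLF3 peaks with a match had 32.7%, 19.3%, 38.8% and 32.3%. The 10 bases most often seen at the consensus, chosen after the sequences were seen, were CACCACGCCC, in 15 of 318 KLF3 SINE peaks (4.72%, interval 2.88 to 7.64) and 28 of 9011 other ones (0.311%, 0.215 to 0.449). Of those 15, 10 were in Alu (B1) and 5 in B4 elements, the families with B1-like sequence. The same letters stood in the Tet1 window printed above. They were found in 5 of 460 ΔDL SINE peaks and 0 of 184 DBD ones, which allows a share of up to 1.63%. No test was made of these differences.

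The share with the consensus had wide and overlapping intervals within families, and the families were not tested against each other. In the KLF3 list it was present in 49 of 87 Alu (B1) peaks (56.3%, interval 45.9 to 66.3), 45 of 98 B4 peaks (45.9%, 36.4 to 55.8), 24 of 63 B2 peaks (38.1%, 27.1 to 50.4) and 18 of 51 MIR peaks (35.3%, 23.6 to 49.01). In the DBD list no family among B4, Alu, B2 and MIR exceeded 11.1%.

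SINE peaks of KLF3 had a lower median height than other intronic and intergenic peaks, as LINE and LTR peaks did. Heights are the authors' tag counts in 400 bp, scaled to a common library size and given as log2. The median was 7.40 for KLF3 SINE peaks (168 normalized tags) against 7.69 for other intronic and intergenic KLF3 peaks (207), 7.56 against 7.58 for ΔDL, and 7.16 against 7.23 for DBD. KLF3 peaks in LINE and LTR repeats had medians of 7.16 and 7.49, and matching on G+C content reduced the KLF3 SINE difference to -0.15. A height of 8 (log2), which is 256 normalized tags, was reached by 77 KLF3 SINE peaks (24.2%, against 36.6% of the others), 110 ΔDL ones (23.9% against 26.9%) and 5 DBD ones (2.72% against 5.64%). In the replicate lists the difference of median log2 scores, SINE minus other, was 0 and -0.16 for KLF3, 0 and -0.14 for ΔDL, and -0.15 in each DBD replicate (exact permutation test, p = 0.6, adjusted p = 0.6).

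Heights combine both replicates and are based on few tags. The tag totals implied by the steps of the deposited scores, which are not counts of mapped reads, were 5457137 and 18083784 for the KLF3 replicates, 1765510 and 10234242 for ΔDL and 7814648 and 8380857 for DBD. A single tag thus counts for 4.29, 8.45 and 6.23 normalized tags in the combined KLF3, ΔDL and DBD data. SINE peaks had medians of 9 and 17 tags in the KLF3 replicates, 6 and 10 in ΔDL and 9 in each DBD replicate. Each merged peak overlapped a peak of both replicate lists of its construct. Of the 318 KLF3 SINE peaks, 267 overlapped a peak of ΔDL replicate 2 and 152 one of replicate 1, which had the lowest tag total. The part of depth in this difference was not tested.

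The highest KLF3 SINE peak lay in a MIRc element 3057 bp upstream of Frs2, which encodes an adaptor of fibroblast growth factor receptors. Its height was 955 normalized tags with KLF3, 849 with ΔDL and 104 with DBD. As deposited, the log2 difference from KLF3 was -0.17 for ΔDL and -3.20 for DBD. With the constructs set to the same median over shared sites, a scaling described further on, it was -1.23 and -3.62. The tags behind it were 68 and 107 in the KLF3 replicates and 8 and 54 in the ΔDL ones, and no DBD replicate had a peak.

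A MIR3 element 10274 bp upstream of Anxa2, the gene of the membrane-binding protein annexin A2, gave 910 normalized tags with KLF3, 755 with ΔDL and 115 with DBD. It is missing from the merged ΔDL list because ΔDL replicate 1 had no peak there, while replicate 2 had 46 tags. An ID4_ element 25169 bp upstream of Aqp2, which encodes a renal water channel, gave 734, 1060 and 68.1 normalized tags. In ΔDL it was the highest SINE peak of all.

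The B2_Mm2 element 19178 bp upstream of Crkl, the gene of a signalling adaptor, kept a DBD peak, with 709 normalized tags with KLF3, 838 with ΔDL and 350 with DBD. The B1_Mus2 element 5872 bp upstream of Tet1, which encodes a 5-methylcytosine dioxygenase, was lower with both mutants, at 530, 229 and 49.5 normalized tags. The remaining sites were near 2300002M23Rik, Tiam2, a Rac exchange factor gene, and Tpbg, which encodes a trophoblast glycoprotein, and at each of the 8 sites the DBD height was below that of KLF3, by 1.02 to 4.13 on the log2 scale.

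**Figure D4:**
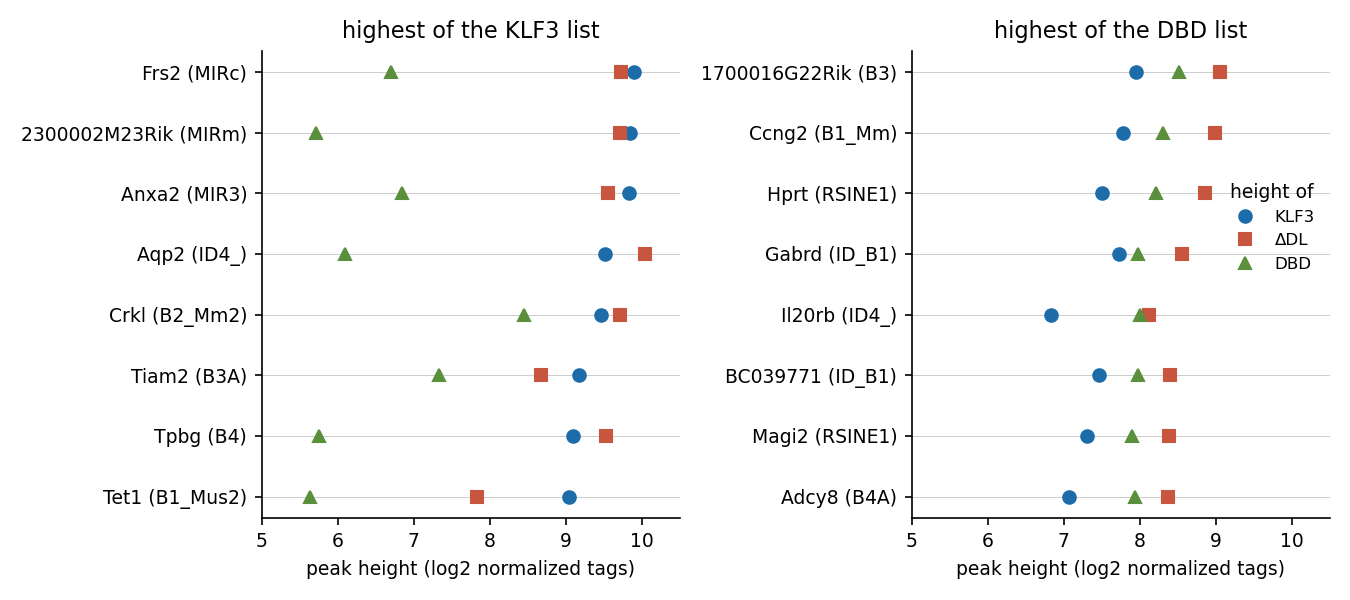
Peak heights (log2 normalized tags, x axis) of all 3 constructs at the 8 highest SINE peaks of the KLF3 list (left) and of the DBD list (right), labelled by nearest gene and subfamily (y axis). Each point is the combined value of both replicates. The choice of sites by the height of a construct favours higher values of that construct. On the left DBD is lowest at each site, and on the right the order of the heights as deposited is KLF3, DBD, ΔDL at each site. With the constructs set to the same median over shared sites, ΔDL falls below DBD at 6 of these 8 sites and DBD below KLF3 at Gabrd.

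At the KLF3 SINE peaks as a whole, chosen through KLF3 peak calls, DBD occupancy was lower. ΔDL occupancy depended on the scaling and on the KLF3 height. The median difference of log2 heights, mutant minus KLF3, was -1.61 for DBD (95% interval of the median over peaks -1.92 to -1.16), against -2.25 at other intronic and intergenic KLF3 peaks. For ΔDL it was 0.38 (0.19 to 0.51), against -0.11 at the others. DBD was at least 2-fold lower at 181 of the 318 SINE peaks (56.9%), where the share over all intronic and intergenic KLF3 peaks was 70.2%, and at least 2-fold higher at 1 (0.314%, where the share over all was 0.279%). ΔDL was at least 2-fold lower at 29 (9.12%, against 17.5% over all) and at least 2-fold higher at 69 (21.7%, against 16.1%). Neither mutant has an error of its own here, since heights pool both replicates. The choice of sites by KLF3 peaks favours lower mutant values. At the DBD SINE peaks the median DBD minus KLF3 difference, as deposited, was 0.23 with the KLF consensus (17 peaks) and 0.43 without it (167). At the ΔDL SINE peaks it was -0.505 (78 peaks) and 0.37 (382). The scaling described next adds -0.42 to each of these values.

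The direction for ΔDL turned when the heights were scaled differently. It also turned as deposited in the upper 50% by KLF3 height, at -0.18, and was 0.045 for KLF3 heights of at least 7. Over the 2334 sites listed for all 3 constructs the median height was 7.05 for KLF3, 8.11 for ΔDL and 7.47 for DBD. With the constructs set to the same median over these sites, the difference at the KLF3 SINE peaks became -0.69 for ΔDL and -2.03 for DBD, against -1.17 and -2.67 at the other intronic and intergenic peaks. ΔDL was then at least 2-fold lower at 134 SINE peaks (42.1%, against 56.1% over all intronic and intergenic KLF3 peaks) and at least 2-fold higher at 0 (against 0.0322%). DBD was at least 2-fold lower at 193 (60.7%, against 71.5%). Under both scalings the SINE peaks lay above the others, and LINE peaks lay further above them, with medians as deposited of 0.82 for ΔDL and 0.16 for DBD. The change adds -1.06 to each ΔDL difference and -0.42 to each DBD difference, so positive differences smaller than these turn negative with it.

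The KLF3 SINE peaks fell into groups that behaved differently with DBD, and the KLF consensus went with the split. Among the 146 with the consensus, the median DBD difference was -2.27 and 16 (11.0%) were in the DBD list. Among the 172 without it, the median was 0.11 and 85 (49.4%) were in the DBD list. The ΔDL differences were -0.09 and 0.74, and the scaling above turned 0.74 and 0.11 negative. Peaks with the consensus were also higher in KLF3, at a median of 7.73 against 7.21. Other intronic and intergenic KLF3 peaks split in the same manner, with DBD differences of -2.67 and -1.35. Of these, 4.38% with the consensus and 40.4% without it were in the DBD list. The part of peak height in this split was not tested.

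**Figure D5:**
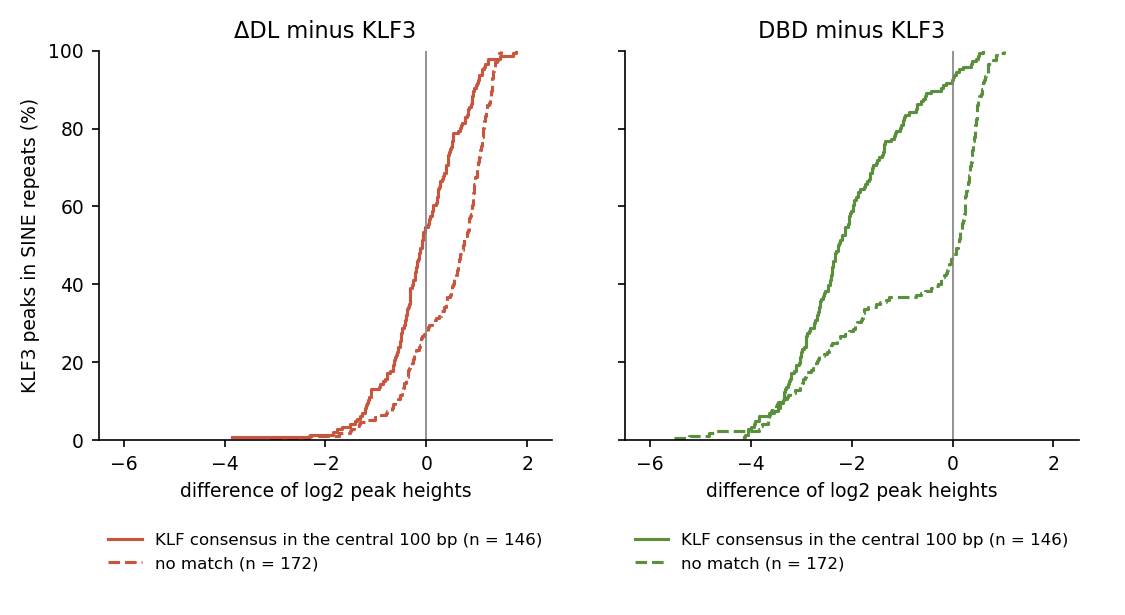
Cumulative share of the 318 KLF3 SINE peaks (%, y axis) by the difference of log2 heights as deposited (x axis), ΔDL minus KLF3 on the left and DBD minus KLF3 on the right. Solid lines are the 146 peaks with the KLF consensus in the central 100 bp and dashed lines the 172 without it. On the right the dashed line has a lower arm below -1 and a steep arm above 0, with a median of 0.11, while the solid line has a median of -2.27.

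Among the 4 larger families, B2 and MIR peaks marked the ends in both mutants. B2 peaks had the highest medians, at 0.72 for ΔDL (interval 0.47 to 0.92) and -0.11 for DBD (-1.63 to 0.18), and MIR peaks the lowest, at -0.13 (-0.29 to 0.41) and -2.31 (-2.68 to -1.43). Alu (B1) peaks gave 0.27 and -1.46, and B4 peaks 0.33 and -1.86. With the constructs set to the same median the ΔDL values of all 4 families were negative, from -1.19 for MIR to -0.34 for B2. The intervals of B2 and MIR did not overlap for ΔDL and overlapped for DBD. They run over peaks whose heights pool both replicates, so they hold no replicate error. Peaks are not replicates, and the families were not tested against each other.

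Of the 318 KLF3 SINE peaks, 147 were in the ΔDL list (46.2%, interval 40.8 to 51.7), where the share over all intronic and intergenic KLF3 peaks was 39.7%, and 101 were in the DBD list (31.8%, 26.9 to 37.1, against 24.4%). Of the 460 ΔDL SINE peaks, 150 were in the KLF3 list (32.6%, against 34.1%) and 171 in the DBD list (37.2%, against 39.2%). Of the 184 DBD SINE peaks, 95 were in the KLF3 list (51.6%, against 48.1%) and 164 in the ΔDL list (89.1%, against 89.7%). For the KLF3 list both background shares lay below the interval of the SINE peaks, and for the mutant lists the shares were near the background. The intervals cover counting error over peaks only, and no test was made. In the upper 50% by height the KLF3 SINE shares were 31.8% in ΔDL and 8.24% in DBD. The shares over all intronic and intergenic peaks at that limit are not given, so no background can be set beside them. With either replicate list of the mutant and no height limit, the KLF3 SINE shares were 85.2% and 40.6%. Over all intronic and intergenic KLF3 peaks they were 77.2% and 30.2%. Of the 147 and 101 shared peaks, 127 and 88 were annotated as SINE in the other list too.

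By distinct sites, 107 of the 682 were listed for all 3 constructs, 170 for KLF3 alone, 236 for ΔDL alone, 17 for DBD alone, 86 for both mutants, 63 for KLF3 and ΔDL, and 3 for KLF3 and DBD. As a share, sites of all 3 constructs were 15.7% (13.1% over all 16958 intronic and intergenic sites), those of KLF3 alone 24.9% (33.2%), of ΔDL alone 34.6% (30.4%) and of DBD alone 2.49% (2.61%). At the 107 sites listed for all 3, heights ran from 78.2 to 709 normalized tags for KLF3 (median 130), from 118 to 949 for ΔDL (median 267) and from 97.7 to 367 for DBD (median 164). As deposited, ΔDL was below KLF3 at 0 of them and DBD at 16, an order that the scaling above changes. At the 170 sites of KLF3 alone the medians were 195 normalized tags with KLF3, 182 with ΔDL and 44.8 with DBD. As deposited, ΔDL was below KLF3 at 123 of them and DBD at 162. The choice of sites called for KLF3 and not for the mutants favours that order. Among KLF3 peaks in neither other list, ΔDL was above KLF3 at 46 of 168 SINE and 1037 of 5409 other intronic and intergenic peaks. DBD was above KLF3 at 7 and 37 of them. Among KLF3 peaks in both other lists, ΔDL was above KLF3 at 98 of 98 SINE and 2109 of 2127 other peaks. DBD was above KLF3 at 86 and 1943 of them, all as deposited.

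These groups also differed in sequence. Of the 98 KLF3 SINE peaks found in both other lists, 15 held the KLF consensus (15.3%, interval 9.50 to 23.7), near the 10.2% of their flanks, and the median G+C content was 40.1%. Of the 168 found in neither, 102 held it (60.7%, 53.2 to 67.8) and the median G+C content was 45.4%. AP-1 elements occurred in 2 of the first group and in 36 of the second. The other intronic and intergenic KLF3 peaks had the consensus in 7.85% and 57.3% of the corresponding groups. The groups differed in KLF3 height too, at medians of 7.01 and 7.61, and the part of height in the sequence values was not tested.

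The highest SINE peaks listed for all 3 constructs, ranked by KLF3 height, were near Crkl, Dmrta2, Gadd45a, Pdia5, Erbb2ip, 1700016G22Rik, Mir684-1 and Ccng2. The B4A element at Gadd45a, a stress-inducible gene of the DNA damage response, lay 34384 bp from that gene in intron 4 of a transcript with 6 introns and gave 471 normalized tags with KLF3, 949 with ΔDL and 121 with DBD. The ID_B1 element near Erbb2ip gave 256, 512 and 244, a DBD difference of -0.07 as deposited and -0.49 with the scaling above. The MIR element 75209 bp from Dmrta2, a transcription factor gene of the doublesex family, gave 512, 639 and 367. That site was annotated as SINE in the ΔDL list alone, and those near Crkl and Pdia5 in the KLF3 and ΔDL lists.

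The highest SINE peaks of the DBD list were at other sites than those of the KLF3 list. Their choice by DBD height favours higher DBD values. The first, a B3 element 44899 bp from 1700016G22Rik, gave 247 normalized tags with KLF3, 530 with ΔDL and 367 with DBD, with 31 and 26 tags in the DBD replicates. A B1_Mm element 191021 bp from Ccng2, the gene of cyclin G2, gave 220, 508 and 317. An RSINE1 element in intron 1 of Hprt, which encodes a purine salvage enzyme, gave 181, 465 and 296. As deposited, DBD was above KLF3 at each of the 8 highest DBD sites, by 0.25 to 1.17 on the log2 scale, and ΔDL was above DBD. With the scaling above, ΔDL was below DBD at 6 of the 8 sites, and DBD stayed above KLF3 at 7, the exception being Gabrd. At the 3 sites described, the DBD difference became 0.15, 0.11 and 0.29.

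Among SINE sites with a height of at least 8 (log2) in the higher of KLF3 and ΔDL, the extremes of the ΔDL difference were an ID_B1 element in intron 17 of Pik3c2g, a phosphoinositide kinase gene, with 276 normalized tags with KLF3, 19.2 with ΔDL and 25.1 with DBD, and an ID4 element in intron 2 of R3hdm2, with 65.3, 256 and 140. Under the same limit, the B1_Mm element in intron 1 of Flii came after Pik3c2g at -1.31, followed by Tet1, Pard6b and Adcyap1r1 at -1.21 each. The next rises after R3hdm2 under this limit were at Mmd (1.88), Irf1 (1.77), Aff1 (1.77) and Col5a2 (1.73), all of which stayed positive after scaling, at 0.67 to 0.91 with R3hdm2 included. Of these rises, those at Aff1 and at Col5a2, a fibrillar collagen gene, had 25 and 40 tags in ΔDL replicate 2 and no peak in replicate 1.

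The DBD difference reached larger falls than rises. Among sites with a height of at least 8 in the higher of KLF3 and DBD, the limit for all sites named next, the lowest was at a B1F element 9977 bp upstream of Gcnt3, a glycosyltransferase gene, where KLF3 had 580 normalized tags, ΔDL 657 and DBD 20.0, a difference of -4.86. Other large falls were at 2300002M23Rik (-4.13), at Os9, which encodes a lectin of endoplasmic reticulum quality control (-4.11), and at Ccdc80 (-3.87). The largest rise was 1.17, at an ID4_ element in intron 1 of the transcript nearest to Il20rb, an interleukin 20 receptor gene. Among the merged lists only that of DBD held it, with 12 and 15 tags in the replicates. Its height was 114 normalized tags with KLF3, 278 with ΔDL and 256 with DBD. For KLF3 (13 tags) and ΔDL (16 tags) a peak was called there in replicate 2 and not in replicate 1. Under that limit the next rises were at Hprt and Wbscr17 (0.71 each), 1700016G22Rik (0.57) and Ccng2 (0.53). In their own lists 77 KLF3 and 5 DBD SINE peaks reached a height of 8, so the limit leaves more sites for falls than for rises.

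The sequence under most SINE peaks was unique in the genome at the read length. Every stretch of 50 bases occurred once in mm9 in 256 of 318 KLF3 SINE peaks (80.5%, interval 75.8 to 84.5), 364 of 460 ΔDL ones (79.1%) and 140 of 184 DBD ones (76.1%), against 90.6%, 85.8% and 85.1% of the other intronic and intergenic peaks. Peaks in other repeats were near the SINE values, with LINE peaks at 80.5%, 75.8% and 77.1% and LTR peaks at 79.9%, 76.5% and 77.6%. MIR peaks were unique throughout in 51 of 51 KLF3 cases, and Alu (B1) peaks in 58 of 87. The least unique KLF3 SINE peak, a B1_Mm element, had 54.3% of its 50-base stretches occurring once. Among fully unique peaks, SINE peaks took 3.04% of the intronic and intergenic KLF3 peaks, 3.93% of the ΔDL ones and 3.48% of the DBD ones, and the KLF consensus was present in 47.7%, 17.3% and 9.29% of them.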

How the data were processed

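V5 ChIP-seq was measured in Klf3-/- MEFs rescued with KLF3, ΔDL or DBD, with 2 replicates each. Per the methods of the study, the authors aligned 50-base reads to mm9 in 2 rounds with Bowtie2 2.0.0 and called peaks per replicate with HOMER 4.1, requiring enrichment over input and over the local background and a false discovery rate cutoff. The submitters' processing notes also name FastQC 0.10.1 and SAMtools 0.1.18. How reads with several matches were treated is not given in the sources used here. Merged lists hold peaks that overlap a peak of both replicates, which was checked for all 31318. The deposited replicate lists hold a score, the normalized tag count of a peak. Peak heights, the signal in 400 bp that the authors normalized and deposited as log2 tags over both pooled replicates, are in the merged lists and in a table that covers the peaks of every list. The authors' annotation also gives G+C and CpG content as a fraction, beside mean PhastCons scores. Input libraries were not analysed here.

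Peaks were compared by an overlap of at least 1 bp. Construct comparisons used two-sided exact permutation tests over 6 replicate lists with 15 arrangements, which cannot reach p = 0.05, with Benjamini-Hochberg adjustment over 5 tests. Nothing states how far the replicates were separate cultures, so p-values measure the spread between these samples. Wilson intervals (95%) and limits for counts of 0 (3 counts) cover counting error only, and peaks are not replicates. Tag totals were recovered from the steps of the scores. They are lower than the mapped reads that the study lists, for a reason not given in the sources used here. Sequences were read from mm9, where G+C of all 31318 peaks equalled the deposited values within 0.001 points. Motifs were searched on both strands in the central 100 bp.

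Peaks named are the 8 highest of each list, the 8 highest by KLF3 height listed for all 3 constructs, and the 5 largest rises and falls of each mutant with a height of at least 8 (log2) in the higher of the pair. A named peak and a sequence that this rule would give are not reported here. The members and lists were chosen with earlier results of these data known. Alternatives were other denominators, height limits, scalings, windows, overlap rules, single replicates and, chosen after seeing the data, unique sequence only. Calculations used scipy 1.17.1, numpy 2.4.6, pandas 2.3.3, numba 0.67.0 and matplotlib 3.10.9 under Python 3.11.15, and the tests were checked on simulated data.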

Additional observations from a re-analysis of the deposited data

How the results depend on the processing

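Of 68 alternative values for 23 results, 24 stayed within the error of the value in the report, 41 moved by more and 3 reversed. Of 24 values from single replicates, 6 stayed, 17 moved and 1 reversed. The causes were not tested. Values below are in the order KLF3, ΔDL, DBD where all 3 are given.

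The SINE share was 3.41% for KLF3 and 4.24% for ΔDL among intronic and intergenic peaks, 1.20%, 3.38% and 3.32% in the upper 50% by height, and 1.15% and 2.97% in the 4955 highest peaks of KLF3 and ΔDL. With unique sequence only, chosen after seeing the data, it was 3.04% for KLF3. Single replicates gave 2.35% to 2.83%, 3.75% to 4.01% and 3.83% to 4.21%. The MIR share was 17.6%, 14.9% and 9.64% in the upper 50%, 19.3% and 11.6% for KLF3 and ΔDL in the same number of highest peaks, and 15.7% to 17.8%, 14.1% to 14.7% and 15.1% to 15.2% in single replicates.

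The G+C difference of KLF3 reversed to 0.998 points against LINE and LTR peaks, and single replicates ran from -1.40 to 2.44. Without replicate 2 it was positive. The G+C values of single replicates are over peaks of other widths than those of the merged lists. For ΔDL it was 3.74 against LINE and LTR peaks, 2.00 in the upper 50% and 4.58 to 5.26 in single replicates, and for DBD 6.11 to 7.09 in single replicates. The height difference was -0.15 for KLF3 and -0.047 for DBD with peaks matched on G+C in 10 bins, and -0.081 for DBD by means. Single replicates gave -0.16 to 0, -0.14 to 0 and -0.15 for each DBD replicate.

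The ΔDL minus KLF3 difference reversed to -0.69 when scaled to the same median over shared peaks and to -0.18 in the upper 50% by KLF3 height, and was 0.045 for KLF3 heights of at least 7. The DBD difference became -2.03, -2.47 and -2.055. With either replicate list of the other construct, the share found elsewhere was 85.2% for KLF3 in ΔDL, 40.6% for KLF3 in DBD, 65.4% for ΔDL in KLF3, 62.4% for ΔDL in DBD, 87.0% for DBD in KLF3 and 98.9% for DBD in ΔDL. Over all intronic and intergenic peaks the same shares, in that order, were 77.2%, 30.2%, 68.5%, 63.4%, 86.6% and 98.7%. In the upper 50% the share of SINE peaks found elsewhere was 31.8%, 8.24%, 63.9% and 55.3% for the first 4 pairs. It was 78.3% for DBD in KLF3, and the shares over all peaks are not given for the upper 50%. The KLF consensus share was 54.7%, 25.9% and 20.7% in 200 bp, 66.0%, 39.6% and 33.7% in 400 bp, and 72.9% and 25.5% for KLF3 and ΔDL in the upper 50%.

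No paired analysis was possible because the construct comparisons rest on lists whose labels carry no number that pairs replicates across constructs, and heights pool both replicates. ΔDL replicate 1 had the lowest tag total, 1765510, and its effect on the ΔDL list was not tested.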
